A study of Mus musculus with 6 samples.

Results

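The proteins of the mitochondrial ribosome are encoded by nuclear genes whose mouse symbols begin with Mrpl, for the large subunit, or Mrps, for the small subunit. All rows of the expression table with such a symbol followed by a digit were taken, leaving out 6 rows whose symbol ends in the pseudogene mark -ps. This gave 78 genes of the 55401 in the table, 49 named for the large subunit and 29 for the small subunit. They lie on 17 chromosomes, and chromosome 11, with 11 of them, holds the most. RNA came from mouse bone marrow-derived macrophages, cells grown from C57BL/6 bone marrow with 40 ng/mL of the growth factor M-CSF and 10% serum for 7 days. There are 3 libraries labelled wild type (WT) and 3 labelled Mettl3-/- (KO). Mettl3 encodes the methyltransferase that places N6-methyladenosine on messenger RNA. The sources used here do not give the age and sex of the mice, how the allele was made, any pooling of animals, or the treatment that the growth conditions are said to precede.

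Mitochondria keep a small genome that encodes a few subunits of the respiratory chain, the ribosomal RNAs and the transfer RNAs. The ribosome that translates it is assembled from those RNAs and from proteins made in the cytosol and imported. Many of its proteins descend from bacterial ribosomal proteins, while others have no bacterial counterpart and were added in the mitochondrial lineage. The small subunit binds the messenger RNA and checks codon against anticodon, and the large subunit joins the amino acids. Names do not always give the place: Mrps30 and Mrps18a are known to sit in the large subunit, and Mrps36 is now described as a subunit of the 2-oxoglutarate dehydrogenase complex.

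The stretches of promoter DNA beside the 3 members with the largest called changes are printed first, because these genes each start next to a gene on the opposite strand. The lines below hold the bases between the RefSeq starts of the pair (build GRCm38.p6), 5′ to 3′ on the strand of the Mrp gene, which is the minus strand in each. Capitals mark the letters CCGGAAG, a core that ETS family transcription factors recognise.
Mrpl43 to Twnk, chr19:45006443-45006557: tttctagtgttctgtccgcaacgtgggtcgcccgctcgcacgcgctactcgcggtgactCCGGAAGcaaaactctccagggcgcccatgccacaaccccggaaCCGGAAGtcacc
Mrpl46 to Mrps11, chr7:78783090-78783130: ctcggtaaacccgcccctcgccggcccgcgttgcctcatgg
Mrps12 to Sars2, chr7:28741822-28741967: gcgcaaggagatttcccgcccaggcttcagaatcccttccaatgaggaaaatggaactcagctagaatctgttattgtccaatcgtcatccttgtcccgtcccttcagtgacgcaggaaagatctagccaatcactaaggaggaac
Between RefSeq starts the gap measured 115 bases for Mrpl43 and Twnk, 41 bases for Mrpl46 and Mrps11 and 146 bases for Mrps12 and Sars2. The gene coordinates of the deposited data differ, with gaps of -779, -412 and 222 bases in the same order. A negative gap means that the annotated spans overlap, so by that annotation the stretches of the first 2 pairs lie within genes. The first stretch holds 2 ETS matches. The other two hold none of the 4 motifs searched, but the longer RefSeq promoter windows, which reach beyond these gaps, hold an ETS and a YY1 match for Mrps12 and a YY1 match for Mrps11.

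Starts that lie back to back were common in the family. A protein-coding gene on the opposite strand began within 1000 bases of the annotated start of 32 of the 78 members (41.0%), against 2039 of 12540 tested protein-coding genes (16.3%). Promoter windows from 250 bases before to 50 after a start were found in RefSeq for 69 members, as 75 windows. Those not found were Mrpl4, Mrpl13, Mrpl15, Mrpl19, Mrpl38, Mrpl54, Mrps28, Mrps34 and Mrps35. On either strand, CCGGAAG was in a window of 26 of the 69 genes (37.7%), against 19.8% of the 10654 tested genes with a window and 8.86% of all 32851 windows in the table. The motif of NRF1, a regulator of nuclear genes for mitochondria (the letters in capitals for Mrpl12 below, with any base in the fifth place), was in those of 13 genes (18.8%), against 11.3% of tested genes and 4.60% of all windows. AAGATGGC, recognised by YY1, was in those of 12 genes (17.4%), against 5.28% and 2.75%. CACGTG, the E-box bound by Myc and its relatives, was in those of 5 genes (7.25%), against 11.6% and 7.15%. A match describes letters and is not a measured binding site.

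Matches were found in the windows of 5 of the 8 called members: ETS in Mrpl43, Mrpl51 and Mrps12, YY1 in Mrps12 and Mrpl42, and NRF1 in Mrpl12. The windows of Mrpl46, Mrps2 and Mrps15 hold none of the 4, so risen and fallen members stand in both sets. As examples, the 100 bases before the start of Mrpl12 (chr11:120484537-120484636, plus strand) hold an NRF1 match, and those before Mrpl51 (chr6:125192100-125192199, plus strand) hold an ETS match, both in capitals.
Mrpl12: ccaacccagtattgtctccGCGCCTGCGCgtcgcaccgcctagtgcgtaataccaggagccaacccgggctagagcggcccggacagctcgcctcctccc
Mrpl51: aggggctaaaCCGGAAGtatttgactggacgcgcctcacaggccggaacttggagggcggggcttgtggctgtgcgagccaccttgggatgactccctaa

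The libraries held 67280390 to 68658821 estimated counts in WT and 68145877 to 77997742 in labelled KO. Mettl3 itself stood at 2.62, 2.91 and 2.26 FPKM across WT and 2.50, 2.56 and 2.93 in labelled KO, with overlapping groups and a difference of 0.02 on the log2 scale (edgeR adjusted p = 0.930), so its transcript level did not set the labels apart. Which exons the allele alters is not stated in the labels, and the samples are called the libraries labelled KO throughout. Of 8 macrophage markers, all tested, 3 were called higher and 2 lower, and their summed FPKM was 16495 to 16842 in WT and 8523 to 8616 in labelled KO. That sum weighs abundant markers most, so its fall does not stand for all 8. Markers of monocytes and progenitors summed to 168 to 173 against 228 to 233 FPKM (5 of 7 called higher), and neutrophil markers to 101 to 106 against 117 to 127 (1 of 4 tested called higher). T and NK cell markers summed to 5.05 to 5.73 against 6.35 to 6.51 FPKM with none of 5 called, and B cell, dendritic, erythroid and stromal markers to at most 1.13 in any library, with Siglech, Hba-a1 and Hbb-bs listed at 0 throughout. The part of these shifts in the results below was not tested. In bulk RNA, fewer cells of a type and less RNA per cell cannot be told apart. Nothing in the labels says that the libraries came from separate animals, so the p-values measure the spread between these libraries, which may be technical.

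All 78 genes had counts in every library and all passed the filter on low counts. Levels are given as FPKM, fragments scaled by gene length and by library size. Mean FPKM over the 6 libraries ran from 1.18 for Mrps35 to 55.5 for Mrps21, a ratio of 46.9. The median member stood at 7.24 FPKM, against 2.84 for all tested genes. Of the members, 7 lay under 2 FPKM, 64 between 2 and 20, and 7 over 20. Genes named for the large subunit had a median of 9.37 FPKM and those named for the small subunit 5.38.

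The highest level belonged to Mrps21, a small-subunit protein with a bacterial counterpart, at 57.6, 58.7 and 53.9 FPKM across WT and 52.8, 53.7 and 56.2 in labelled KO. Mrpl34 and Mrpl27 followed, with means of 27.9 and 27.2 FPKM, then the stalk protein Mrpl12 at 22.3 and Mrpl24 at 22.2. Mrps21 stood apart from all other members in every library, while the next ones were close to each other. At the low end were Mrps35 at 1.18, Mrps10 at 1.46 and Mrpl53 at 1.50 FPKM. Between the groups Mrps35 and Mrps10 overlapped, with log2 fold changes of -0.06 ± 0.13 (SE, n = 3 per group, edgeR adjusted p = 0.826) and 0.06 ± 0.13 (edgeR adjusted p = 0.832).

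**Figure D1:**
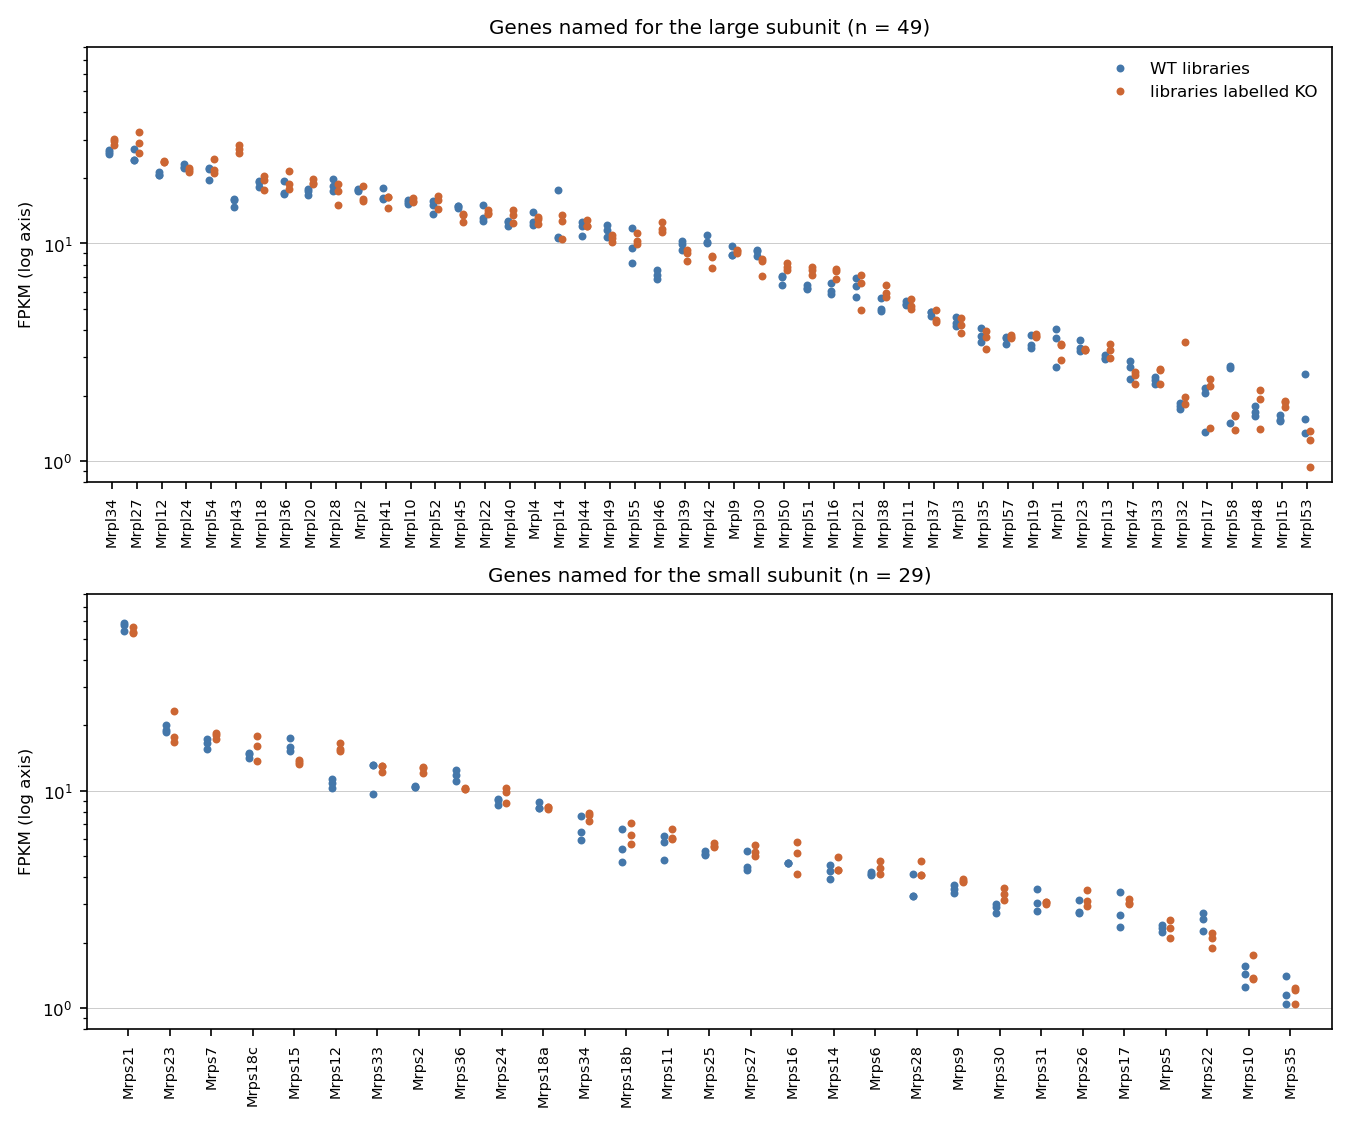
FPKM (log axis) of every member in the 3 WT and the 3 labelled KO libraries, each point a library, with the genes ordered by mean level within those named for the large and the small subunit. Levels run from 1.18 to 55.5 on average, and for most genes the libraries of the groups lie among each other.

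Much of this order followed the length that the annotation assigns to a gene. The exons of a member, merged over all annotated transcripts, covered 607 bases (Mrpl34) to 8631 bases (Mrps35), with a median of 2394. Across the 78 genes, which share the 6 libraries, mean FPKM and exonic length had a Spearman rho of -0.76, while the estimated counts and exonic length had a rho of 0.0026. The 10 members with the highest FPKM had a median of 1279.5 exonic bases and the 10 with the lowest 7091.5. The length implied by the deposited FPKM was 1.12 to 1.14 times the merged exons for every member, so FPKM here is per merged exonic length. A gene with long alternative transcripts therefore reads low, and levels of different members are only roughly comparable. Mrpl53 departed from this order: with only 790 exonic bases it stood at 1.50 FPKM and had the lowest estimated count of the family in a library, 58. Of its exonic bases, 88.0% are shared on the same strand with another annotated gene, Gm42688, so its counts are uncertain.

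**Figure D2:**
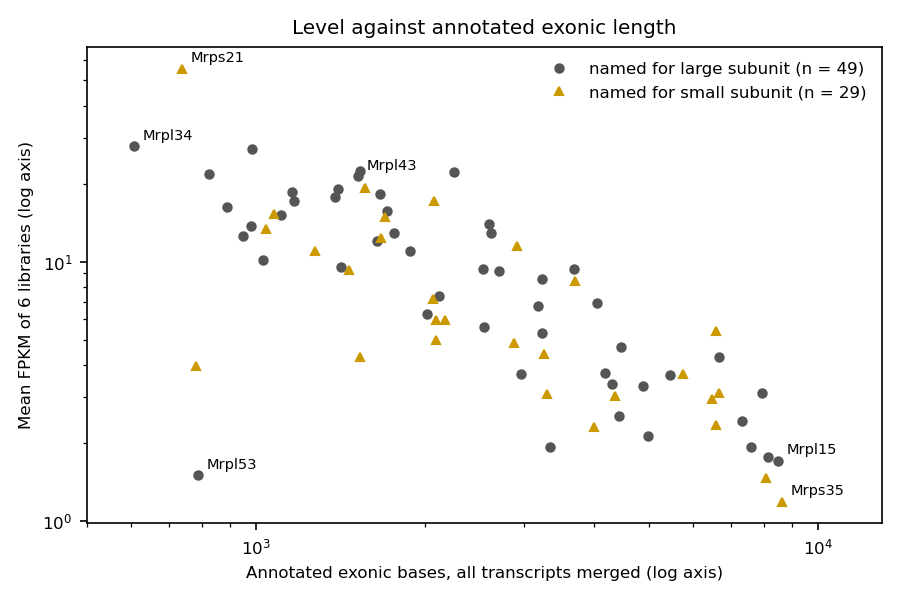
Mean FPKM of 6 libraries against annotated exonic bases (both log axes), each point a member, by the subunit in its name. Level falls as annotated length grows (Spearman rho -0.76 across 78 genes), with Mrpl53 far below genes of its length.

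The family as a whole differed little between the groups. Its summed level was 743 to 752 FPKM across WT and 773 to 794 in labelled KO, and its share of all counts 0.167% to 0.170% against 0.173% to 0.178%, with no overlap on either measure. Both measures are relative to the library total and weigh abundant members most. They also hold the rises of Mrpl43, Mrpl46 and Mrps12, whose mean FPKM went from 15.5 to 27.1, 7.20 to 11.8 and 10.8 to 15.8. Whether the groups stay apart without these 3 genes was not tested. The median log2 fold change of the members was 0.065, against -0.005 for all tested genes, and the middle of the distribution ran from -0.07 to 0.13. The median size of a change, whichever its sign, was 0.10 on the log2 scale for members and 0.18 for all tested genes. Of the members, 47 had a positive and 31 a negative fold change. The members' median was lowest without labelled KO replicate 3, at 0.024, and was 0.036 without WT replicate 3.

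Calls rest on edgeR's quasi-likelihood test over 16256 genes, with the threshold at an adjusted p of 0.05. By this rule 12.7% of all tested genes were called, 7.01% as higher in labelled KO and 5.67% as lower. Of the 78 members, 6 were called higher and 2 lower, 8 in all or 10.3%, a share near that background. Among members named for the large subunit 4 rose and 1 fell of 49, and among those named for the small subunit 2 rose and 1 fell of 29. Of 47 members with a bacterial counterpart 3 rose and 1 fell, and of 29 without such a counterpart 3 rose and 1 fell. Mrps28 and Mrps36 were placed in neither class. In FPKM, the 3 WT and 3 labelled KO values did not overlap for 23 members (29.5%), 16 of them higher in labelled KO and 7 lower, against 33.8% of all tested genes.

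**Figure D3:**
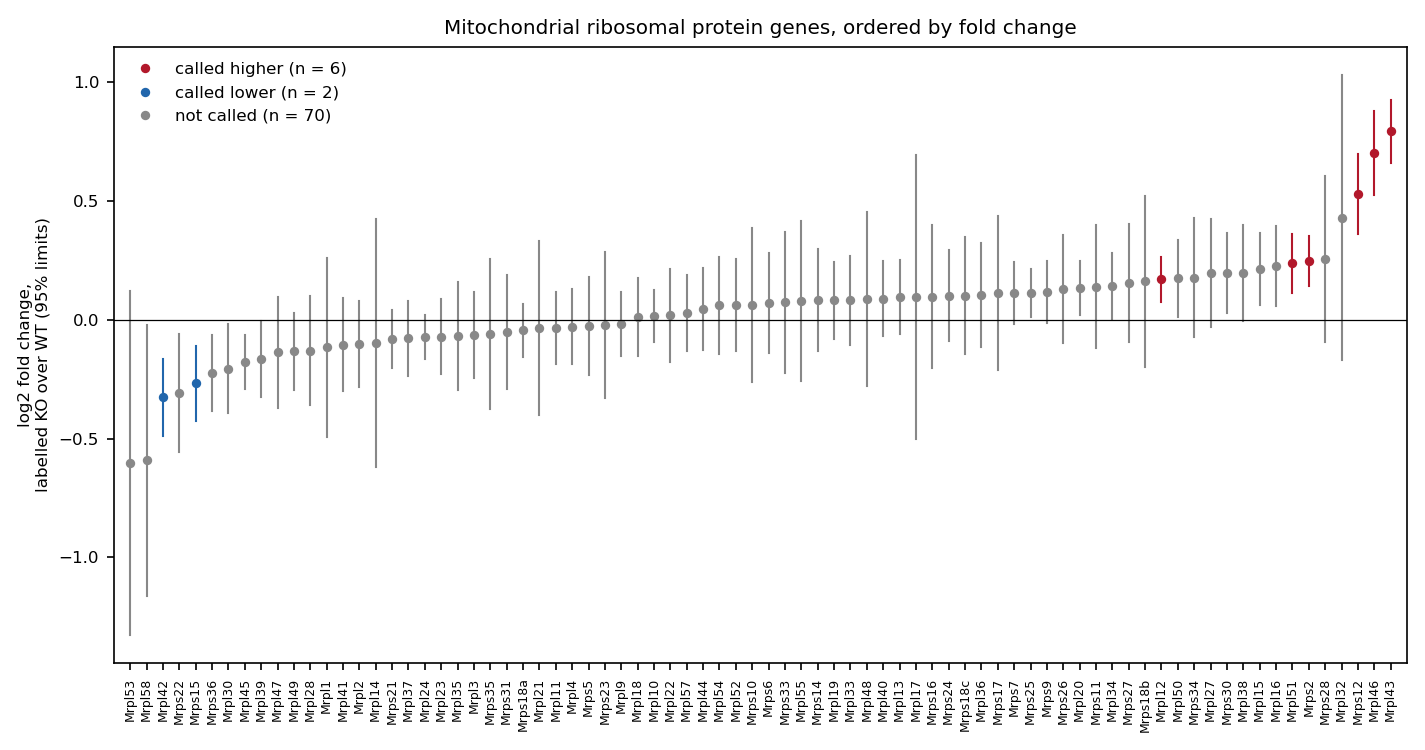
Log2 fold change, labelled KO over WT, of the 78 members with 95% limits, ordered by size and coloured by call (6 higher, 2 lower, 70 not called). Mrpl43, Mrpl46 and Mrps12 stand at the upper end, while most members lie near 0.

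Mrpl43, Mrpl46 and Mrps12 rose most. Mrpl43, a protein of the large subunit without a bacterial counterpart (chromosome 19, 45004829 to 45006442, minus strand), stood at 14.7, 16.0 and 15.8 FPKM across WT and 27.0, 28.3 and 26.1 in labelled KO. Every labelled KO value was above every WT value, and the log2 fold change was 0.79 ± 0.056 (SE, n = 3 per group, edgeR adjusted p = 0.000423), a ratio of 1.73. Mrpl46, also specific to the mitochondrial large subunit (chromosome 7, 78775236 to 78783531, minus strand), measured 7.58, 6.85 and 7.17 FPKM across WT and 11.7, 11.3 and 12.5 in labelled KO. The groups were again well apart, with a log2 fold change of 0.70 ± 0.074 (SE, n = 3 per group, edgeR adjusted p = 0.00219), a ratio of 1.62. Mrps12 is the counterpart of bacterial S12, which lies at the decoding centre of the small subunit (chromosome 7, 28739641 to 28741770, minus strand). It measured 10.3, 11.3 and 10.8 FPKM across WT and 15.6, 15.2 and 16.6 in labelled KO, without overlap, and its log2 fold change was 0.53 ± 0.070 (SE, n = 3 per group, edgeR adjusted p = 0.00505), a ratio of 1.44. These 3 calls held under all 15 alternatives, with log2 fold changes of 0.76 to 0.82, 0.65 to 0.74 and 0.49 to 0.56.

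Smaller rises were called for Mrps2, Mrpl51 and Mrpl12. Mrps2, the counterpart of bacterial S2, was at 10.38, 10.42 and 10.47 FPKM across WT and 12.83, 12.02 and 12.65 in labelled KO. Its groups did not overlap and its WT values were nearly equal, with a log2 fold change of 0.25 ± 0.044 (SE, n = 3 per group, edgeR adjusted p = 0.0154). Mrpl51, a mitochondria-specific protein of the large subunit, was at 6.46, 6.26 and 6.16 FPKM across WT and 7.54, 7.17 and 7.79 in labelled KO, a log2 fold change of 0.24 ± 0.052 (SE, n = 3 per group, edgeR adjusted p = 0.0309). Mrpl12, the counterpart of the bacterial stalk protein L7/L12 and also known to bind the mitochondrial RNA polymerase, was at 20.6, 21.3 and 20.7 FPKM across WT and 23.7, 23.9 and 23.7 in labelled KO. The groups were apart although the rise was small, with a log2 fold change of 0.17 ± 0.039 (SE, n = 3 per group, edgeR adjusted p = 0.0368), or 12.5%. Leaving out a library ended the call for Mrps2 in 4 of 6 cases (without WT 1, WT 2, labelled KO 1 or labelled KO 3; edgeR adjusted p = 0.0578 to 0.0617), for Mrpl51 in 5 of 6 (all but labelled KO 2; 0.0675 to 0.103) and for Mrpl12 in 6 of 6 (0.0788 to 0.113).

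The 2 members called lower were Mrpl42 and Mrps15. Mrpl42, without a bacterial counterpart, was at 10.1, 10.9 and 10.1 FPKM across WT and 7.68, 8.76 and 8.66 in labelled KO. All labelled KO values lay below all WT values, a log2 fold change of -0.33 ± 0.068 (SE, n = 3 per group, edgeR adjusted p = 0.0262). Mrps15, the counterpart of bacterial S15, was at 17.5, 15.2 and 15.8 FPKM across WT and 13.9, 13.3 and 13.6 in labelled KO. Its groups did not overlap either, with a log2 fold change of -0.27 ± 0.066 (SE, n = 3 per group, edgeR adjusted p = 0.0465). Both calls were lost in 6 of 6 fits that left out a library, at adjusted p of 0.0531 to 0.0857 for Mrpl42 and 0.0553 to 0.130 for Mrps15, while the direction stayed negative.

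**Figure D4:**
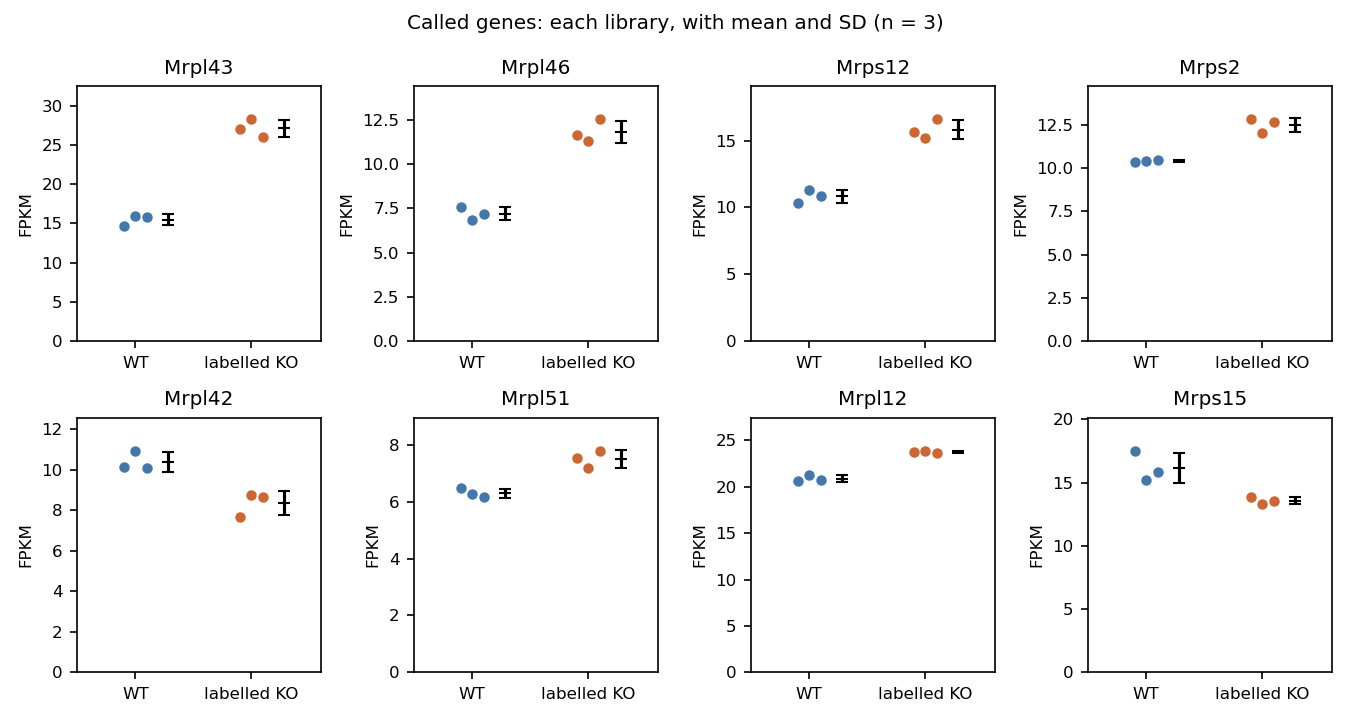
FPKM of the 8 called members in each WT and labelled KO library, with the mean and SD of 3 libraries beside the points, all axes starting at 0. In every panel the groups are apart; the widest gap is that of Mrpl43 (14.7 to 16.0 against 26.1 to 28.3).

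The count of some called members can hold reads of other genes. In GENCODE M21, 28 members overlap exons of a gene on the opposite strand, and no source used here gives the strand setting of the counting. Mrpl43 shares 507 of its 1520 exonic bases (33.4%) with Twnk, and Mrpl46 shares 173 of 1415 (12.2%) with Mrps11. Reads of Mrpl43 and Mrpl46 can in turn be counted for Twnk and Mrps11, so the values of these neighbours are uncertain as well. A run of 50 identical bases with another annotated locus was found for 40 members, for 33 of them with a pseudogene, and for none in Mrpl46, Mrps12, Mrps2 and Mrps15. The other transcripts were scanned in steps of 10 bases, so a shared run little longer than 50 bases can be missed. Mrpl42 shared such a run with 65 other loci and Mrpl51 with 63, so their counts are uncertain where reads were split. Mrpl43 shared it with 3 loci, none a pseudogene, and Mrpl12 with 1 pseudogene.

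The genes beside the risen members were then set against them (Twnk, Mrps11, Sars2 and Ncapd2 were named after their values were seen). Twnk, the helicase of mitochondrial DNA replication, was at 1.77, 1.67 and 1.41 FPKM across WT and 1.83, 1.94 and 1.89 in labelled KO, a log2 fold change of 0.21 at an adjusted p of 0.280. Mrps11, the counterpart of bacterial S11, was at 4.81, 5.81 and 6.19 FPKM across WT and 6.64, 6.08 and 6.01 in labelled KO, a log2 fold change of 0.14 at an adjusted p of 0.480. Sars2, the mitochondrial seryl-tRNA synthetase, was at 2.47, 2.05 and 2.66 FPKM across WT and 1.94, 2.29 and 2.15 in labelled KO, a log2 fold change of -0.19 at an adjusted p of 0.392. None of these 3 partners was called, and their values moved with single libraries, to 0.12 for Twnk without WT 3 and to -0.11 without WT 3 and -0.29 without WT 2 for Sars2. Ncapd2 encodes a condensin subunit. Its start lies 100 bases from that of Mrpl51 by the deposited gene coordinates, not by the RefSeq starts used for the printed stretches. Ncapd2 was at 2.90, 3.05 and 2.79 FPKM across WT and 2.58, 2.50 and 2.59 in labelled KO, a log2 fold change of -0.21 at an adjusted p of 0.0764. DESeq2 called it lower (adjusted p = 0.0376), as did edgeR on genes with a mean FPKM of at least 1 (adjusted p = 0.0426).

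Within each pair, the log2 difference in FPKM between member and partner was larger in all labelled KO libraries than in any WT library. For Mrpl43 over Twnk it averaged 3.27 ± 0.22 in WT and 3.84 ± 0.05 in labelled KO (SD, n = 3 per group, exact permutation p = 0.1, two-sided). The average went from 0.37 to 0.92 for Mrpl46 over Mrps11, from 2.18 to 2.90 for Mrps12 over Sars2 and from 1.11 to 1.55 for Mrpl51 over Ncapd2, each with the same exact p of 0.1. This is the smallest p that 3 against 3 libraries can give. These 4 members were chosen because they had risen, so the shift of each pair is a description. Among all 32 members with such a neighbour 4 were called, and 4 of the 46 without. The share called over all tested genes was 12.7%, and these counts and that of the neighbours were not tested against it. Of the 31 tested neighbours 4 were called: Mrpl46, which is the neighbour of Mrps11, and lower in labelled KO Eme2, Fau and Pnpla7, named after their values were seen.

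**Figure D5:**
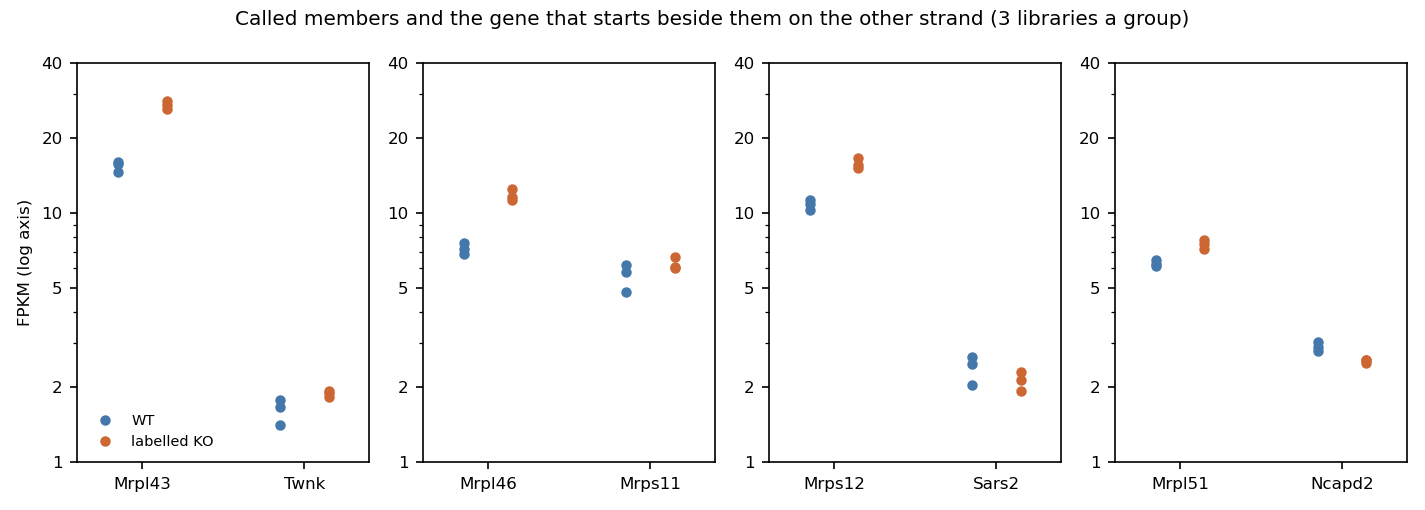
FPKM (log axis) of 4 called members and of the gene that starts beside each on the other strand, in 3 WT and 3 labelled KO libraries. The points of the members separate by group, while those of Mrps11 and Sars2 overlap; Twnk and Ncapd2 are apart by less and were not called by the main test.

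The other 70 members were not called. For 62 of them the 95% limits of the log2 fold change lay within 0.5 of 0 on either side. Limits were wider for Mrps22, Mrpl58, Mrpl53, Mrps28, Mrpl32, Mrps18b, Mrpl14 and Mrpl17, so changes of that size were not excluded by these data. Without adjustment, 21 members (26.9%) had a p under 0.05, close to the 26.5% of all tested genes.

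Among the largest fold changes without a call, a single library stood apart in Mrpl58, Mrpl53 and Mrpl32. Mrpl58, a peptidyl-tRNA hydrolase that is built into the large subunit and rescues stalled ribosomes, measured 2.74, 2.69 and 1.49 FPKM across WT and 1.39, 1.63 and 1.61 in labelled KO. WT replicate 3 lay within the labelled KO range, and the log2 fold change was -0.59 ± 0.24 (SE, n = 3 per group, edgeR adjusted p = 0.173); without that library it was -0.83 with an edgeR adjusted p of 0.0134. Mrpl53 measured 1.34, 2.52 and 1.56 FPKM across WT and 1.25, 0.935 and 1.38 in labelled KO, a log2 fold change of -0.60 ± 0.30 (SE, n = 3 per group, edgeR adjusted p = 0.266), which was -0.28 without WT replicate 2. Mrpl32, whose protein is processed by a mitochondrial protease before it joins the ribosome, was at 1.74, 1.84 and 1.78 FPKM across WT and 1.84, 3.52 and 1.96 in labelled KO. Only labelled KO replicate 2 was high, and the log2 fold change was 0.43 ± 0.25 (SE, n = 3 per group, edgeR adjusted p = 0.339), which was 0.068 without that library. Mrps22, a mitochondria-specific protein of the small subunit, had lower values without overlap, 2.74, 2.58 and 2.26 FPKM against 1.89, 2.21 and 2.10, and a log2 fold change of -0.31 ± 0.10 (SE, n = 3 per group, edgeR adjusted p = 0.113). Mrps28 overlapped between the groups, with a log2 fold change of 0.26 ± 0.15 (SE, n = 3 per group, edgeR adjusted p = 0.328).

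Replicates of the family were otherwise close. Between the 3 libraries of a group, FPKM varied with a median coefficient of variation of 5.28% in WT and 6.29% in labelled KO, against 9.41% and 8.93% over all tested genes, whose median level is lower. It passed 20% in either group for 6 members, Mrpl58, Mrpl53, Mrpl32, Mrpl48, Mrpl14 and Mrpl17.

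The 3 related proteins Mrps18a, Mrps18b and Mrps18c, all descended from bacterial S18, were expressed side by side. Mrps18c was at 14.6 ± 0.39 FPKM across WT and 15.9 ± 2.1 in labelled KO, Mrps18a at 8.51 ± 0.31 and 8.34 ± 0.10, and Mrps18b at 5.60 ± 1.0 and 6.34 ± 0.74 (SD, n = 3 per group). Their log2 fold changes were 0.10, -0.04 and 0.16, and none was called (edgeR adjusted p = 0.603, 0.610 and 0.564). With each library left out they ran from 0.0094 (without labelled KO 1) to 0.20 (without labelled KO 2) for Mrps18c, from -0.061 (without WT 2) to -0.013 (without WT 3) for Mrps18a and from 0.053 (without WT 3) to 0.31 (without WT 1) for Mrps18b. The order Mrps18c, Mrps18a, Mrps18b was kept in the group means of both groups. Mrps14, the counterpart of bacterial S14, stood at 4.24 ± 0.31 FPKM across WT and 4.54 ± 0.36 in labelled KO (SD, n = 3 per group), a difference of 0.08 on the log2 scale (edgeR adjusted p = 0.635) that ran from 0.010 (without labelled KO 3) to 0.13 (without WT 2) with a library left out.

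Of 5 known ribosomal subunits whose symbols do not follow the Mrpl and Mrps pattern, none was called. Dap3, a GTP-binding protein of the small subunit, was at 4.21 ± 0.097 FPKM across WT and 4.21 ± 0.19 in labelled KO, and Chchd1 at 14.0 ± 0.35 and 13.5 ± 1.1 (SD, n = 3 per group). Ptcd3 was at 2.16 ± 0.064 and 1.95 ± 0.33 FPKM, and Gadd45gip1 at 8.17 ± 0.92 and 9.14 ± 0.16 (SD, n = 3 per group). Aurkaip1 spread widely in the labelled KO group, with 7.95, 19.9 and 16.6 FPKM against 10.0, 11.9 and 11.6 in WT, a log2 fold change of 0.39 ± 0.31 (SE, n = 3 per group, edgeR adjusted p = 0.50). Its log2 fold change was 0.69 without labelled KO replicate 1 (edgeR adjusted p = 0.0265) and 0.12 without labelled KO replicate 2 (edgeR adjusted p = 0.871).

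Genes that work with the mitochondrial ribosome mostly stayed without a call. In 5 lists together (those subunits, translation factors, assembly factors, mitochondrial transcription and DNA maintenance, and aminoacyl-tRNA synthetases) 2 of 74 tested genes were called, or 2.70%, against 12.7% of all tested genes. Their median log2 fold change was -0.01, and the median size of a change 0.13, against 0.18 for all tested genes. The groups did not overlap in FPKM for 24 of the 74 (32.4%), near the 33.8% of all tested genes. None of 16 translation factors was called by edgeR (3 had an unadjusted p under 0.05); the elongation factor gene Tufm was at 16.6 ± 2.2 FPKM across WT and 15.7 ± 0.39 in labelled KO, and Oxa1l, which inserts new proteins into the inner membrane, at 14.9 ± 0.48 and 14.4 ± 0.14 (SD, n = 3 per group). Of 26 assembly genes 1 rose, Ddx28, an RNA helicase of large-subunit assembly, from 11.3, 11.9 and 12.2 to 14.6, 15.6 and 13.8 FPKM, a log2 fold change of 0.30 ± 0.061 (SE, n = 3 per group, edgeR adjusted p = 0.0246). Of 10 genes for mitochondrial transcription and DNA 1 fell, the single-stranded DNA-binding protein gene Ssbp1, from 2.18, 2.11 and 2.10 to 1.86, 1.79 and 1.79 FPKM, a log2 fold change of -0.25 ± 0.055 (SE, n = 3 per group, edgeR adjusted p = 0.0331). The groups did not overlap for either gene, but the Ddx28 call was lost in 5 of 6 fits that left out a library (all but labelled KO 3; edgeR adjusted p = 0.0570 to 0.0791) and the Ssbp1 call in 6 of 6 (0.0715 to 0.102). None of 17 synthetase genes was called by edgeR (2 had an unadjusted p under 0.05), Iars2 standing at 5.04 and 5.44 FPKM and Rars2 at 5.19 and 4.65.

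Transcripts for cytosolic ribosomal proteins, for the proteins encoded in the mitochondrial genome and for nuclear complex I subunits were set beside the family. Of 90 tested cytosolic ribosomal protein genes 2 rose and 31 fell, 36.7%, and their median log2 fold change was -0.13, while that of the mitochondrial ribosomal proteins was 0.065. The difference between these 2 families was not tested. Rpl11 fell from 91.5 ± 1.3 to 57.7 ± 2.5 FPKM (SD, n = 3 per group, log2 fold change -0.68, edgeR adjusted p = 0.000175), and Rpl3 and Rpl4 fell by 0.26 and 0.15 on the log2 scale (edgeR adjusted p = 0.00131 and 0.00163). Many cytosolic ribosomal protein genes have near-identical copies, so their counts are uncertain. Of the 13 protein genes of the mitochondrial genome none was called higher and 2 were called lower. These were mt-Nd1 with a log2 fold change of -0.15 and mt-Nd2 with -0.11 (edgeR adjusted p = 0.00219 and 0.0363). Of the 13 fold changes 8 were positive and 5 negative, with a median of 0.03. The largest, 0.78, was not called. Their median coefficient of variation was 11.9% in labelled KO and 2.50% in WT. The number called rests on single libraries: without labelled KO replicate 3 it was 5, and without WT 1, WT 2, labelled KO 1 or labelled KO 2 it was 1. Of 40 tested nuclear complex I genes none rose and 2 fell, Ndufs7 and Ndufb6 (log2 fold changes of -0.20 and -0.34, edgeR adjusted p = 0.0291 and 0.0324), with a median of -0.08, and 0 or 1 was called when any library was left out.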

How the data were processed

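Poly(A) RNA of 6 libraries was sequenced. The submitters' processing notes name build mm10 and, as tools, StringTie 1.3.4d, HISAT2 2.0.4 and cutadapt 1.9; no source used here gives their settings, the annotation or the strand setting. Per the file headers, the authors deposited for each gene and library an FPKM value and an estimated count. Multiples of 4 made up 36.9% to 40.4% of counts from 1 to 20, so low counts are not tallies of single reads. A count of 0 is listed with an FPKM of 0.0001.

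Rounded estimated counts went into edgeR 4.0.16 (R 4.3.3; TMM, filterByExpr with a minimum count of 10, glmQLFit, glmQLFTest, Benjamini-Hochberg over 16256 genes), labelled KO against WT. The test was also run on simulated counts, drawn independently with the dispersions of these data and without their excess of multiples of 4. That run therefore does not cover this feature of the deposited counts. The 95% limits use the test's own degrees of freedom. Gene coordinates are those of the deposited table; exon overlaps come from GENCODE M21 and promoters from RefSeq GRCm38.p6. Members and lists were chosen with earlier results of these data known. Genes named are all called members, the 5 uncalled with the largest fold change, the 5 highest and 3 lowest by FPKM, the Mrps18 genes, Mrpl12, Mrpl58, Mrps12, Mrps14, the 5 further subunits, up to 3 called genes per list or otherwise 2 of the highest FPKM, and Mettl3; members named only in counts, lists or for annotation lie outside this rule. Of 17 translation factors listed, 1 was not matched. Alternatives were DESeq2 1.42.0, median-of-ratios and total-count scaling, no filter, a mean FPKM of at least 1, limma 3.58.1 on log2(FPKM + 0.1, 1 or 0.01) for genes of at least 0.5 FPKM, a replicate block and each library left out.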

Additional observations from a re-analysis of the deposited data

How the results depend on the processing

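No called member changed direction under any of 15 alternatives, and Mrpl43, Mrpl46 and Mrps12 stayed called in all of them. Leaving out a library, which leaves fewer samples, gave 1244 to 1339 called genes in place of 2060, 3 to 5 members higher in place of 6, 0 to 1 lower in place of 2, 2 to 3 for the large subunit in place of 5, 1 to 2 for the small subunit in place of 3, 0 to 2 genes of the 5 lists in place of 2, 1 to 5 mitochondrially encoded genes in place of 2, 0 to 1 complex I genes in place of 2, and a member median of 0.024 to 0.068 in place of 0.065. DESeq2 called 2787 of 16256 genes, with 8 members higher and 4 lower. It gave 8 large-subunit members, 5 genes of the 5 lists and 5 complex I genes. Without a filter 1661 of 24292 genes were called, with 4 members higher and 1 lower, 3 large-subunit members and 1 mitochondrially encoded gene. Total-count scaling called 2078 genes and gave 1 member lower and a member median of 0.082. The median of all tested genes moved up with it, to 0.012 in place of -0.005. A mean FPKM of at least 1 gave 5 of the 62 genes of the 5 lists that it tested, where 2247 of all 10857 tested genes were called. Limma called 2091 to 2103 of 12366 genes. With any of the 3 pseudocounts it gave 8 members higher and 3 lower, 7 large-subunit members and 1 mitochondrially encoded gene. Mrpl34 was among the members it called higher (log2 difference 0.15 to 0.16). The cause of these shifts was not tested. Libraries with the same replicate number did not deviate together over all tested genes (correlations of -0.021 to 0.015), so no pairing by number was seen. A pairing that touches few genes could be missed this way. With the replicate block, which costs residual degrees of freedom, the counts were 1012 for all genes, 3 members higher, 0 lower, 2 for the large and 1 for the small subunit, 0 genes of the 5 lists, 16 cytosolic ribosomal genes in place of 33, 1 mitochondrially encoded gene and 1 complex I gene. Directions turned only for uncalled genes near 0. With each library left out, log2 fold changes ran from -0.15 to 0.069 for Mrps35 (above 0 without WT replicate 1, and 0.013 without labelled KO replicate 1), from -0.072 to 0.14 for Mrps10 (-0.023 without WT replicate 1), from -0.066 to 0.11 for Mettl3 (-0.055 without labelled KO replicate 3) and from -0.047 to 0.019 for Dap3, which was 0.000294, 0.000344 and 0.000285 with limma at pseudocounts of 0.1, 1 and 0.01.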

Other observations

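The 4 uncalled members with the smallest adjusted p, named after their values were seen, had groups that did not overlap in FPKM. Mrpl45, which ties the ribosome to the inner membrane at the exit of the protein tunnel, was at 14.9, 14.6 and 14.8 FPKM across WT and 13.5, 13.7 and 12.5 in labelled KO, a log2 fold change of -0.18 at an edgeR adjusted p of 0.0599. Mrps36 was at 11.1, 11.8 and 12.5 FPKM across WT and 10.3, 10.2 and 10.2 in labelled KO, a log2 fold change of -0.23 at an edgeR adjusted p of 0.0825. Mrpl15, with 8487 annotated exonic bases, was at 1.55, 1.52 and 1.63 FPKM across WT and 1.77, 1.89 and 1.87 in labelled KO, a log2 fold change of 0.21 at an edgeR adjusted p of 0.0804. Mrpl16 was at 5.88, 6.07 and 6.55 FPKM across WT and 6.84, 7.61 and 7.44 in labelled KO, a log2 fold change of 0.23 at an edgeR adjusted p of 0.0908.

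Of the 6 pseudogene rows left out of the family, 4 passed the filter on low counts, and the highest mean level was 2.10 FPKM, for Mrpl27-ps. The GO terms of the deposited table name the mitochondrial ribosome for 99 genes, 77 of them members and 22 outside the family.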
